A study of Mus musculus with 16 samples.

Results

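The 10 genes described here encode the machinery that carries a cell through G1 into S phase, and they were chosen by name from the 51912 genes in the count tables. They are the D cyclins *Ccnd1*, *Ccnd2* and *Ccnd3*, the E cyclins *Ccne1* and *Ccne2*, the kinases *Cdk2*, *Cdk4* and *Cdk6*, and the CIP/KIP inhibitors *Cdkn1b* (p27) and *Cdkn1c* (p57). None of the 10 differed between genotypes at an FDR below 0.05 in any of the 3 comparisons. *Cdkn1a* (p21), the remaining CIP/KIP inhibitor and a classical target of p53, was measured beside them and was higher in cKO cortex.

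UMI RNA-seq was performed on microdissected E15.5 cerebral cortex of 15 mouse embryos, asking how the transcriptome changed after deletion of *Knl1* (named Casc5 in the labels) with p53 present or co-deleted. The cKO embryos (*n* = 4; mice 5, 7, S2 and F3) lacked *Knl1* through *hGFAP-Cre*, a transgene that acts in cortical neural progenitor cells (NPCs), so that cells outside this lineage kept the gene. The dKO embryos (*n* = 4; mice T2, T8, F1 and F7) lacked both *Knl1* and *Trp53* through the same Cre. Of the ctrl embryos (*n* = 7), 5 were Casc5 wild type (mice 2, 6, S1, S3 and T3) and 2 were Casc5 heterozygous (T4 and T5), and their labels name no Cre. Mouse S2 had 2 libraries, S2 and S2b, which were summed. The litters were unevenly spread. Litter 1 held 2 ctrl and 2 cKO mice, litter 2 held 2 ctrl mice and cKO mouse S2, litter 3 held 3 ctrl and 2 dKO mice, and litter 4 held cKO mouse F3 and 2 dKO mice with no ctrl. Libraries of batch 1 came from litters 1 and 2, the only library of batch 2 was ctrl mouse S1, and batch 3 held litters 3 and 4.

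Total counts ran from 399832 to 3266227 in ctrl mice, from 4178461 to 8800987 in cKO mice and from 552186 to 5396803 in dKO mice, so that every cKO mouse was sequenced more deeply than every ctrl mouse. The deleted exons cannot be told apart in whole-gene counts. *Knl1* was at 48.7 to 80.0 CPM (counts scaled to library size, with TMM) in ctrl mice, and its log2 fold change was −0.13 (standard error 0.18) in cKO versus ctrl and −0.37 (standard error 0.20) in dKO versus ctrl. *Trp53* was at 15.6 to 47.0 CPM in ctrl mice and at 19.8 to 32.3 CPM in dKO mice, a log2 fold change of −0.36 (standard error 0.22). Markers of radial glia, the neural stem cells of the cortex, summed to 415 to 691 CPM in ctrl, 449 to 574 in cKO and 464 to 640 in dKO. Of these 8 markers, 3 were lower in cKO than in ctrl at an unadjusted edgeR p below 0.05 and 0 were higher. Over genes with a mean of at least 5 CPM, 10.4% passed that p in either direction. The median log2 fold change of the 8 was −0.22, and 0 passed an FDR below 0.05. *Sox2*, among the 8, had 0 counts over all mice, so that it could not be called and entered the median as 0. The paper counted SOX2-expressing progenitors in E15.5 cortex by immunostaining, so that 0 counts here do not mean absence. Of 6 intermediate progenitor markers, *Eomes* (log2 fold change −1.13) and *Neurog2* (−1.19) were lower in cKO than in ctrl at an FDR below 0.05, and the summed level was 158 to 213 CPM in ctrl, 87.3 to 163 in cKO and 104 to 186 in dKO. At an unadjusted edgeR p below 0.05, 6 of 8 interneuron markers were higher in cKO than in ctrl and 0 were lower. The median log2 fold change of these 8 was 0.50. Counting the other marker genes at an FDR below 0.05, 1 of the 8 interneuron markers, *Gad1*, was higher in cKO than in ctrl (0.56). Of 4 choroid plexus markers 1, *Ttr*, was lower in cKO than in ctrl (−5.61) and than in dKO (−5.02), while *Folr1* was at 0.14 and 1.02, and the summed level was 0.543 to 60.0 CPM in ctrl, 0.909 to 3.25 in cKO and 2.52 to 25.9 in dKO. Of 6 erythroid markers 1, *Hba-a2*, was higher in dKO than in ctrl (1.98), while *Hbb-y* was at −1.18 and *Hba-a1* at 0.054. The part of these differences in the levels of the G1 genes was not tested. In bulk tissue, fewer cycling cells and less RNA per cycling cell cannot be told apart.

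In G1, D cyclins bind CDK4 or CDK6 and E cyclins bind CDK2, and these kinases phosphorylate RB and its relatives, which releases E2F factors to switch on S-phase genes. CIP/KIP proteins bind cyclin-CDK complexes and block the CDK2 complexes in particular. In the developing cortex, the length of G1 is tied to the choice of an NPC between dividing again and making a neuron. Cyclin D2 and D1 are the D cyclins of cortical progenitors, and p27 and p57 are tied to cell cycle exit.

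On GRCm38 the D cyclin genes lie at chr7:144929931-144939925 (*Ccnd1*, minus strand), chr6:127125162-127152193 (*Ccnd2*, minus) and chr17:47505051-47599691 (*Ccnd3*, plus), and the E cyclin genes at chr7:38097984-38107534 (*Ccne1*, minus) and chr4:11191351-11204779 (*Ccne2*, plus). The kinase genes lie at chr10:128697939-128705031 (*Cdk2*, minus), chr10:127063534-127067920 (*Cdk4*, plus) and chr5:3341485-3531008 (*Cdk6*, plus), and the inhibitor genes at chr6:134920401-134925513 (*Cdkn1b*, plus) and chr7:143458339-143461050 (*Cdkn1c*, minus).

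Promoter windows of 300 bases, lying mostly before and partly after a transcription start, were taken from RefSeq on GRCm38.p6. Of the 10 genes, *Cdk2*, *Cdk4*, *Cdk6*, *Cdkn1b*, *Ccne1* and *Ccnd3* matched, *Ccnd3* with 2 windows. *Ccnd1*, *Ccnd2*, *Ccne2* and *Cdkn1c* did not match. The windows of 3 genes are shown, of *Cdk2* as the member with the largest differences, of *Cdkn1b* as the inhibitor with the most counts, and of *Ccne1* as the member with the fewest counts. Capitals mark the letters CCAAT (the CCAAT box) and GGGCGG (the GC box) on either strand, so that ATTGG and CCGCCC are capitals as well. The windows run 5′ to 3′ along each gene, at chr10:128705002-128705301 (minus strand) for *Cdk2*, chr6:134920151-134920450 (plus strand) for *Cdkn1b* and chr7:38107441-38107740 (minus strand) for *Ccne1*.
Cdk2: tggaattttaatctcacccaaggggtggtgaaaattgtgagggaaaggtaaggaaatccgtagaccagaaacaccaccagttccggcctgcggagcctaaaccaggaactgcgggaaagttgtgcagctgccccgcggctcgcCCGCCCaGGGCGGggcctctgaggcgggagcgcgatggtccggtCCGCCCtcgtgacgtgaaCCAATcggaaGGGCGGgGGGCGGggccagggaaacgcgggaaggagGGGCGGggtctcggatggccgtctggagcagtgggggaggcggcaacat
Cdkn1b: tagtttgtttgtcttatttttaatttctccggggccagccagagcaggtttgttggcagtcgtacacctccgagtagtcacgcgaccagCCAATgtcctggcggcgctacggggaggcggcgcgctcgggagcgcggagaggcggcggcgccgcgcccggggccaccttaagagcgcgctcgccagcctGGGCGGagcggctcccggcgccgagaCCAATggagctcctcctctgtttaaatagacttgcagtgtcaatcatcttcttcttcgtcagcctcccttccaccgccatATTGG
Ccne1: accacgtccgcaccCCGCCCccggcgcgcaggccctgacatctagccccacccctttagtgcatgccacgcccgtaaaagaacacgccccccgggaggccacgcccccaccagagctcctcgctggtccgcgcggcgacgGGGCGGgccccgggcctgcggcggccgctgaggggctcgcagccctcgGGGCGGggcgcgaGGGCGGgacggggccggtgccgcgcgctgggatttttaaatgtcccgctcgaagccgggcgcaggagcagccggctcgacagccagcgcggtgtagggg
The *Cdk2* window held 6 GC boxes and 1 CCAAT box, the *Cdkn1b* window 1 GC box and 3 CCAAT boxes, and the *Ccne1* window 4 GC boxes and no CCAAT box. Of 32851 RefSeq promoter windows of this length, 35.7% held a GC box and 37.4% a CCAAT box. The letters TTTCGCGC or TTTGGCGC, 2 forms of the E2F motif, were in 0.813% of all windows and in none of the 7 member windows on either strand. The *Cdk6* window was the only one of the 7 with TATAAA, the letters of a TATA box, against 13.6% of all windows. The GC content of the 7 windows was between 59.3% and 76.0%, against a median of 52.7% over all windows. These matches describe letters and do not show binding.

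Levels were compared between genes per kb of exon, counting every base in any annotated exon of the gene. *Ccnd2* had the highest level in every genotype, with 36.6 ± 6.17 CPM per kb in ctrl (SD, *n* = 7), 31.0 ± 8.19 in cKO (*n* = 4) and 31.9 ± 10.6 in dKO (*n* = 4). *Cdk4* followed at 21.6 ± 4.04 CPM per kb in ctrl and *Cdkn1b* at 18.3 ± 3.86. In all 7 ctrl mice *Ccnd2* was above *Cdk4* and *Cdkn1b* was above *Cdk6*, whereas *Cdk4* was above *Cdkn1b* in 6 of 7. *Cdk6* and *Cdkn1c* were at 9.47 ± 1.52 and 9.33 ± 4.39 CPM per kb in ctrl and did not differ beyond their spread. The same held for *Ccnd1* (4.29 ± 2.44) and *Ccne2* (3.82 ± 1.35). *Cdk2*, *Ccne1* and *Ccnd3* closed the order at 1.69 ± 0.902, 1.32 ± 0.478 and 1.20 ± 0.409 CPM per kb, again with no order beyond the spread. Their place depended on the division by length. The annotated exons of *Cdk2* and *Ccnd3* cover 6219 and 8775 bases and those of *Ccne1* 2662. Not divided by length, *Cdk2* and *Ccnd3* were each at 10.5 CPM in ctrl, *Ccne1* at 3.52 and *Ccne2* at 13.4. In cKO and dKO the first 3 places were held by the same genes, and *Cdkn1c* stood before *Cdk6*, in 2 of 4 cKO and in 4 of 4 dKO mice.

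**Figure D1:**
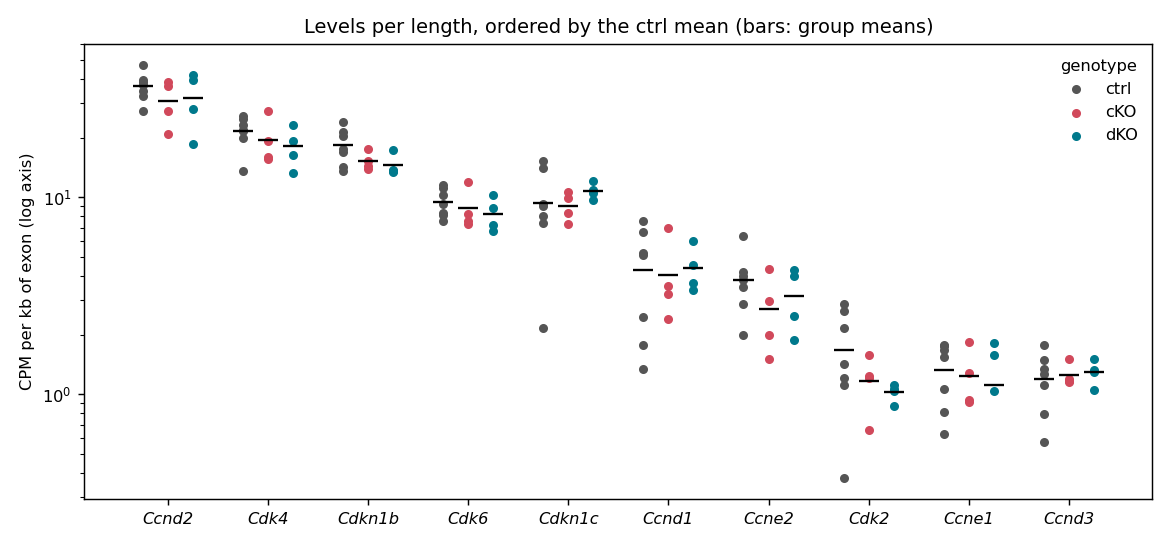
Level of each gene in CPM per kb of exon (log axis) in ctrl (grey), cKO (red) and dKO (teal) mice, ordered by the ctrl mean; each point is 1 mouse and each bar a group mean, and the dKO mouse with 0 counts of *Ccne1* has no point on the log axis. *Ccnd2* stands highest in each genotype, and *Cdk2*, *Ccne1* and *Ccnd3* lie together at the bottom.

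In each family 1 gene held most of the summed level per kb on average. *Ccnd2* made up 87.1% ± 6.03 of the D cyclin level per kb in ctrl (SD, *n* = 7), 85.5% ± 3.24 in cKO (*n* = 4) and 84.2% ± 3.84 in dKO (*n* = 4). *Ccne2* made up 73.6% ± 10.6 of the E cyclins in ctrl, 67.6% ± 3.71 in cKO and 72.8% ± 21.6 in dKO, where the lowest mouse was at 50.9%. *Cdk4* made up 65.7% ± 5.55 of the 3 kinases per kb in ctrl, 66.2% ± 1.03 in cKO and 65.7% ± 5.37 in dKO. Counts not divided by exon length gave *Cdk4* 33.0% and *Cdk6* 62.1% in ctrl, because the annotated exons of *Cdk6* cover 13989 bases and those of *Cdk4* 3249 bases.

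The D cyclins carry growth factor signals to the cell cycle. *Ccnd1* was between 6.33 and 35.6 CPM in ctrl with a median of 23.9, and at 15.2, 16.8, 33.0 and 11.4 CPM in cKO mice 5, 7, S2 and F3. In dKO mice T2, T8, F1 and F7 it was at 28.2, 21.3, 16.0 and 17.3 CPM. The mutant mice all lay within the ctrl range. The log2 fold change was −0.08 (standard error 0.35, 95% interval −0.77 to 0.61) in cKO versus ctrl and −0.02 (standard error 0.34, −0.68 to 0.64) in dKO versus ctrl.

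*Ccnd2*, which had the most counts of all 10 genes, was between 257 and 444 CPM in ctrl with a median of 348. It was at 259, 363, 346 and 198 CPM in cKO mice 5, 7, S2 and F3 and at 369.7, 392, 264 and 176 CPM in dKO mice T2, T8, F1 and F7. The lowest mutant mice, F3 and F7, were both of litter 4, which has no ctrl mouse. The log2 fold change was −0.25 (standard error 0.16, −0.56 to 0.06) in cKO and −0.20 (standard error 0.17, −0.54 to 0.14) in dKO. With litter as a block these became 0.02 and 0.06.

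*Ccnd3* was between 5.04 and 15.6 CPM in ctrl with a median of 11.1. It was at 10.2, 10.5, 13.2 and 10.2 CPM in cKO and at 11.6, 9.24, 13.3 and 11.4 CPM in dKO, in the same order of mice. All 8 mutant values lay inside the ctrl range. However, the lowest ctrl values, 5.04 CPM in mouse 2 and 7.00 CPM in T3, rested on 3 counts each. The log2 fold changes against ctrl were 0.04 (standard error 0.23) and 0.12 (standard error 0.27).

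E cyclins activate CDK2 at the entry into S phase. *Ccne2* was between 6.96 and 22.2 CPM in ctrl with a median of 13.3. It was at 5.28, 7.00, 15.1 and 10.5 CPM in cKO and at 14.9, 13.9, 8.75 and 6.60 CPM in dKO. Its log2 fold change was −0.39 (standard error 0.31, −1.0 to 0.22) in cKO and −0.35 (standard error 0.32, −0.98 to 0.28) in dKO. The groups overlapped in both comparisons.

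*Ccne1* was between 1.68 and 4.75 CPM in ctrl, at 2.44, 2.5, 4.89 and 3.41 CPM in cKO, and at 0, 2.77, 4.23 and 4.85 CPM in dKO. Counts per mouse were between 0 and 43, and the dKO mouse T2, with 0 of 552186 counts, allowed a level of up to 5.43 CPM (3 counts, without TMM scaling). The log2 fold changes against ctrl were −0.08 (−0.82 to 0.66) and 0.08 (−0.81 to 0.97). Both intervals hold changes of either sign, so that no direction can be given at this depth.

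**Figure D2:**
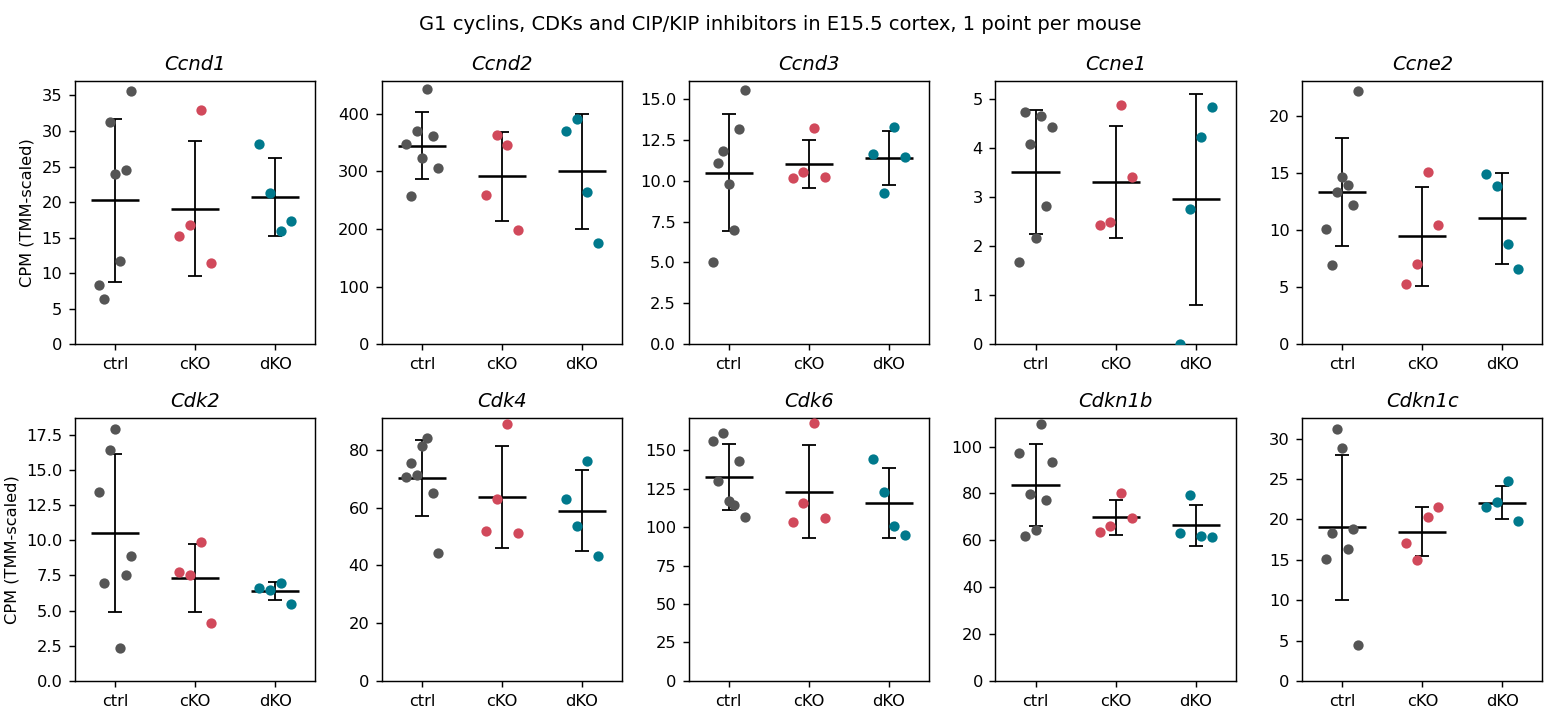
Level in CPM of each of the 10 genes in ctrl, cKO and dKO cortex; points are mice, the wide bar is the group mean and the whiskers 1 SD (*n* = 7, 4 and 4). The groups overlap for every gene, and the 4 dKO values of *Cdk2*, between 5.43 and 6.94 CPM, lie below the ctrl median of 8.89.

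*Cdk2*, the kinase of the G1/S transition and S phase, had the largest differences among the 10 genes. It was between 2.33 and 17.9 CPM in ctrl with a median of 8.89, and at 7.72, 7.50, 9.90 and 4.09 CPM in cKO mice 5, 7, S2 and F3. In dKO mice T2, T8, F1 and F7 it was at 6.63, 6.47, 6.94 and 5.43 CPM. All 4 dKO and 3 of 4 cKO mice were below the ctrl median, but the lowest mouse of all was ctrl mouse T3, with 1 count. The log2 fold change was −0.62 (standard error 0.32, −1.25 to 0.01) in cKO and −0.84 (standard error 0.36, −1.55 to −0.13) in dKO, each with an edgeR FDR of 1. In dKO it was −0.08 (standard error 0.56, −1.18 to 1.02) inside batch 3 and −0.01 (standard error 0.66, −1.31 to 1.29) with litter as a block, and both intervals still hold −0.84. Of the ctrl mice, 2, S1 and S3 of batches 1 and 2 were at 13.4, 17.9 and 16.4 CPM, mouse 6 of batch 1 was at 6.96, and T3, T4 and T5 of batch 3 were at 2.33, 7.53 and 8.89. Batches 1 and 2 hold no dKO mouse. In cKO versus ctrl the log2 fold change with litter as a block was −0.50 (standard error 0.26), and inside batch 1 it was −0.44 (standard error 0.35).

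*Cdk4* and *Cdk6*, the partners of the D cyclins, had narrower intervals. *Cdk4* was between 44.5 and 84.0 CPM in ctrl with a median of 71.2, at 51.8, 63.0, 88.8 and 51.1 CPM in cKO, and at 63.0, 53.6, 76.1 and 43.3 CPM in dKO. *Cdk6* was between 107 and 161 CPM in ctrl with a median of 129.8, at 103, 116, 167 and 106 CPM in cKO, and at 144, 123, 101 and 94.9 CPM in dKO. For both kinases 3 of 4 cKO mice were below the ctrl median and S2 was above every ctrl mouse. The log2 fold changes in cKO were −0.17 (standard error 0.17, −0.50 to 0.16) for *Cdk4* and −0.13 (standard error 0.15, −0.43 to 0.17) for *Cdk6*. In dKO they were −0.28 (standard error 0.18, −0.62 to 0.07) and −0.25 (standard error 0.15, −0.54 to 0.04), with an edgeR FDR of 1.

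Of the inhibitors, *Cdkn1b* was between 62.0 and 109.7 CPM in ctrl with a median of 79.9. It was at 63.6, 66.0, 80.3 and 69.3 CPM in cKO mice 5, 7, S2 and F3 and at 63.0, 79.5, 61.9 and 61.3 CPM in dKO mice T2, T8, F1 and F7. The groups overlapped. The 3 highest ctrl mice, T3, 2 and T5, were the 3 with the fewest counts of the ctrl group, with 47, 58 and 42 counts of this gene. The log2 fold change was −0.20 (standard error 0.15, −0.49 to 0.09) in cKO and −0.27 (standard error 0.16, −0.59 to 0.05) in dKO. With only mice of at least 600000 counts, an alternative chosen after seeing the data, these were 0.003 (standard error 0.15) and −0.09 (standard error 0.17). Inside batch 3 the value in dKO was −0.48 (standard error 0.21, edgeR FDR of 1).

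*Cdkn1c*, an imprinted gene, was between 4.45 and 31.2 CPM in ctrl with a median of 18.4. It was at 17.1, 15.0, 20.2 and 21.6 CPM in cKO and at 21.5, 22.2, 24.8 and 19.8 CPM in dKO. The mutant values were close together, and the ctrl range covered all 8 of them. The low end of that range was ctrl mouse T5, with 2 counts. The next ctrl mouse, mouse 2, was at 15.1 CPM with 9 counts, just above cKO mouse 7. All 4 dKO mice were above the ctrl median. The log2 fold change of *Cdkn1c* was −0.20 (standard error 0.23, −0.65 to 0.25) in cKO and 0.07 (standard error 0.25, −0.42 to 0.56) in dKO. In dKO it was 0.60 (standard error 0.37, −0.13 to 1.32) inside batch 3 and 0.59 (standard error 0.42) with litter as a block. With litter as a block it was −0.36 (standard error 0.20) in cKO.

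*Cdkn1a* differed from these 2 inhibitors. It was between 0 and 4.70 CPM in ctrl, at 8.94, 9.50, 6.03 and 7.50 CPM in cKO and at 1.66, 0.924, 2.11 and 2.13 CPM in dKO. The cKO values were the 4 highest. However, ctrl mice 2, T3 and T5 had 0 counts, which allow up to 5.22, 7.50 and 7.19 CPM (3 counts, without TMM scaling). On that scale cKO mice S2 and F3 were at 6.02 and 6.65 CPM, so that T3 and T5 cannot be placed below them. The log2 fold change was 1.70 (standard error 0.38, edgeR FDR = 0.00366) in cKO versus ctrl and 2.01 (standard error 0.40, edgeR FDR = 0.000410) in cKO versus dKO. In dKO versus ctrl it was −0.26 (standard error 0.60, edgeR FDR of 1). Inside batch 1 the value in cKO versus ctrl was 1.85 (edgeR FDR = 0.0926), and with litter as a block it was 1.67 (edgeR FDR = 0.00734). In cKO versus dKO it was 1.82 with litter as a block (edgeR FDR = 0.337) and 1.98 inside batch 3 (edgeR FDR of 1), which holds 1 cKO mouse. The share of *Cdkn1a* among the 3 CIP/KIP inhibitors per kb was 1.79% ± 1.99 in ctrl (SD, *n* = 7), 8.59% ± 2.35 in cKO (*n* = 4) and 1.89% ± 0.708 in dKO (*n* = 4). *Cdkn1b* remained the main inhibitor transcript with 65.8% ± 14.7, 57.5% ± 2.63 and 56.2% ± 3.87. *Cdkn1c* made up 32.4% ± 13.5, 33.9% ± 3.24 and 41.9% ± 3.37.

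**Figure D3:**
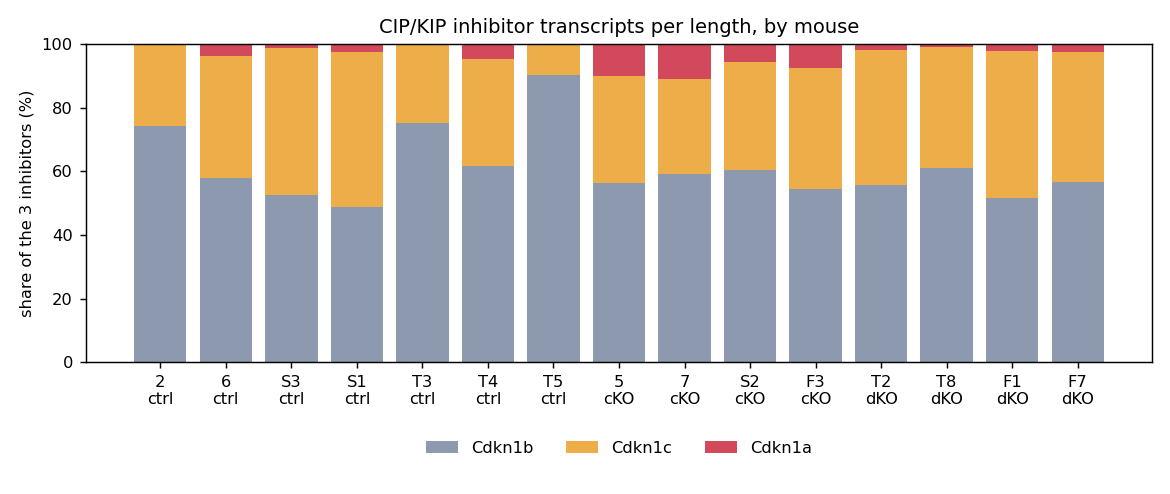
Share (%) of *Cdkn1b*, *Cdkn1c* and *Cdkn1a* in their summed level per kb of exon, with 1 stacked bar for each mouse. *Cdkn1a* takes between 5.80% and 10.9% in the 4 cKO mice and at most 4.81% in the other mice, and *Cdkn1b* is the largest part in every mouse.

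Against the whole transcriptome, 0.16% of the 51912 genes passed an FDR below 0.05 in cKO versus ctrl, 0.0501% in dKO versus ctrl and 0.052% in cKO versus dKO. In each, 0 of the 10 G1 genes did so. Of the 51912 listed genes, only 27394 had a count, so that these shares are low for expressed genes. Among genes that passed a filter on low counts, 138 of 10992, 14 of 9638 and 14 of 12484 passed that FDR. At an unadjusted p below 0.05 there were 0, 1 and 0 of the 10 genes, the 1 being *Cdk2* in dKO versus ctrl, against 10.4%, 5.73% and 4.06% of the genes with a mean of at least 5 CPM. Groups that did not overlap were found for 0 of the 10 genes in each comparison, against 1.25%, 0.673% and 3.88%. DESeq2 and the quasi-likelihood F test of edgeR also called 0 of 10 at an FDR below 0.05 in each comparison. The quasi-likelihood test gave *Cdk2* an FDR of 0.808 and *Ccnd2* an FDR of 0.721 in cKO versus ctrl. The comparisons share their mice, ctrl in the first and second and the mutants in the third, so that they are not independent of each other.

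Log2 fold changes of the 10 genes were negative for 9 in cKO versus ctrl, 7 in dKO versus ctrl and 6 in cKO versus dKO. Of the genes with a mean of at least 5 CPM, 58.5%, 53.6% and 61.9% had positive values. The medians of the 10 genes were −0.18, −0.23 and −0.0068, beside 0.037, 0.016 and 0.053 over the genes with that mean. The median in cKO versus ctrl was −0.37 without cKO mouse S2 and −0.066 with litter as a block. In dKO versus ctrl it was −0.10 without dKO mouse F7 and −0.054 with litter as a block. In cKO versus dKO its sign turned with single mice, being −0.17 when S2 was left out and 0.13 when mouse 5 was. The 95% interval lay within −1 and 1, a change of less than 2-fold either way, for 8, 9 and 10 of the 10 genes. *Cdk2* and *Ccne2* in cKO, and *Cdk2* in dKO, were those whose interval reached below −1.

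**Figure D4:**
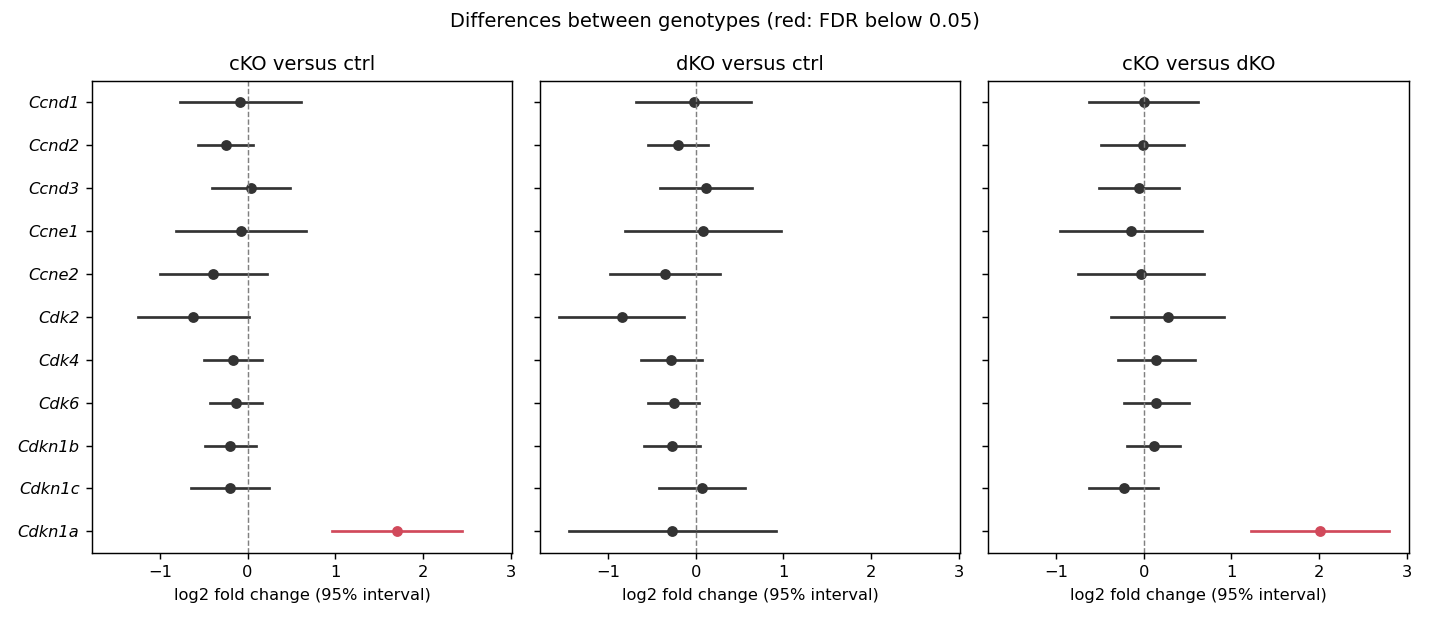
Log2 fold change (point) with its 95% interval (line) for the 10 genes and *Cdkn1a* in the 3 comparisons, red where the FDR was below 0.05. Only *Cdkn1a* is red, in cKO versus ctrl and in cKO versus dKO, and of the 10 G1 genes only the interval of *Cdk2* in dKO versus ctrl, from −1.55 to −0.13, leaves out 0.

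In cKO versus dKO the differences without a block were small. The largest were *Cdk2* at 0.27 (standard error 0.33, −0.37 to 0.92) and *Cdkn1c* at −0.23 (standard error 0.20, −0.62 to 0.16). *Ccnd1* and *Ccnd2* were at −0.00010 (standard error 0.32) and −0.013 (standard error 0.24). Inside batch 3, which leaves 1 cKO mouse, *Ccnd1* was at −0.73 (standard error 0.38), *Ccnd2* at −0.57 (standard error 0.35) and *Cdk2* at −0.59 (standard error 0.58), each with an edgeR FDR of 1. With batch as a covariate *Ccnd2* was at −0.57 as well.

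The ctrl levels of *Ccnd1* differed between litters. It was at 6.33 and 8.40 CPM in the ctrl mice of litter 1, at 23.9 and 31.2 CPM in those of litter 2, and at 11.7, 24.5 and 35.6 CPM in those of litter 3. Within litters 1 and 2 each cKO mouse was above its ctrl littermates, at 15.2 and 16.8 CPM in litter 1 and 33.0 CPM in litter 2. With litter as a block, the log2 fold change of *Ccnd1* in cKO versus ctrl was 0.62 (standard error 0.22, 0.20 to 1.04, edgeR FDR = 0.608). It was −0.49 when mouse S2 was left out of the comparison without a block. The direction for *Ccnd1* thus depended on how litter was treated, and no fit placed it past the FDR threshold.

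The kinases that partner the D cyclins differed between litters 1 and 2 as well. In litter 1, *Cdk4* was at 51.8 and 63.0 CPM in cKO and 70.5 and 75.3 CPM in ctrl, and in litter 2 it was at 88.8 CPM in cKO and 71.2 and 81.4 CPM in ctrl. *Cdk6* was at 103 and 116 CPM in cKO and 129.8 and 156 CPM in ctrl of litter 1, and at 167 CPM in cKO and 117 and 161 CPM in ctrl of litter 2. The cKO mice were thus below their ctrl littermates in litter 1 and above them in litter 2 for both genes. The difference between the litters in the effect, an interaction test chosen after seeing the data, was 0.62 (standard error 0.27) for *Cdk4* and 0.64 (standard error 0.24) for *Cdk6* on the log2 scale, and −0.96 (standard error 0.45) for *Ccnd1*, each with an edgeR FDR of 1. These 3 of the 10 genes had an unadjusted p below 0.05, against 4.41% of the genes with a mean of at least 5 CPM, and litter 2 holds 1 cKO mouse.

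**Figure D5:**
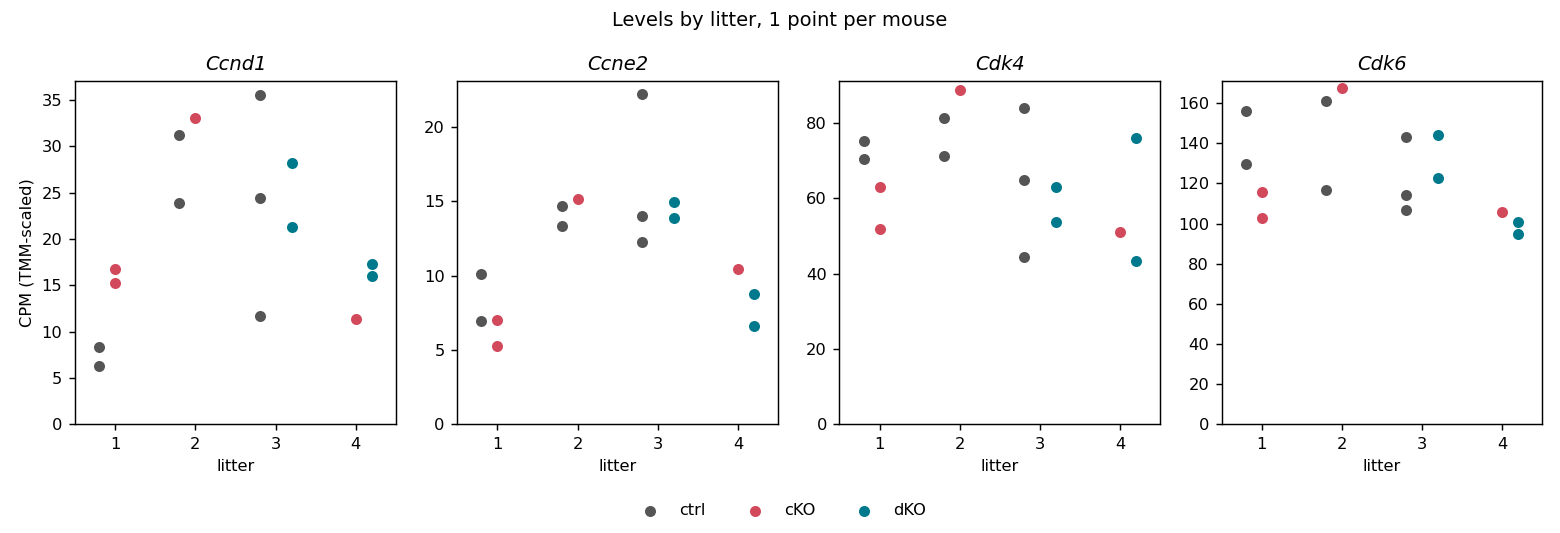
Level in CPM of *Ccnd1*, *Ccne2*, *Cdk4* and *Cdk6* by litter in ctrl (grey), cKO (red) and dKO (teal) mice, with 1 point for each mouse. *Ccnd1* is lowest in the ctrl mice of litter 1, and the cKO mouse of litter 2 is the highest cKO mouse in each panel.

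Without mouse S2, *Cdk4* was at −0.39, *Cdk6* at −0.32, *Cdk2* at −0.82, *Ccne2* at −0.72 and *Ccnd2* at −0.34 (log2 fold change, cKO versus ctrl), the smallest edgeR FDR being 0.386 for *Cdk4*. The pair of libraries made from S2 gave like counts of the 10 genes, for example 140 and 150 for *Ccnd1* and 381 and 400 for *Cdk4*, and the exact binomial p for equal shares was between 0.0549 and 0.880. The high values of S2 were therefore present in both libraries. *Cdkn1a* had 36 and 17 counts in them (exact binomial p = 0.0127).

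Other genes of the pathway were counted in the same fits. Of 4 INK4 inhibitors, 3 pocket proteins, 10 E2F and DP factors, 12 genes of G1 cyclin turnover and CDK activation, and 16 E2F target genes, none passed an FDR below 0.05 in any comparison. *Rbl1* (p107), a pocket protein that binds repressive E2F factors, was at −0.34 in cKO and −0.41 in dKO versus ctrl. *Rb1* was at 0.24 in cKO versus dKO, with edgeR FDR values of 1 for both genes. Among E2F and DP factors the smallest p-values were those of *E2f8* in cKO (−0.43) and of *Tfdp2* in dKO (−0.27) and in cKO versus dKO (0.16).

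E2F target genes, which serve DNA replication, had medians of −0.15, −0.20 and 0.013 in the 3 comparisons. At an unadjusted p below 0.05, 0, 3 and 0 of 16 were lower and 0, 0 and 1 were higher. Over the genes with a mean of at least 5 CPM, 10.4%, 5.73% and 4.06% passed that p in either direction. *Cdt1*, among the 16, had 0 counts over all mice, so that it could not be called and entered the medians as 0. *Ccna2*, the cyclin that follows the E cyclins on CDK2, was at −0.63 (standard error 0.22, edgeR FDR = 0.853) in dKO versus ctrl. *Orc1*, a subunit of the origin recognition complex, was at −0.57 (standard error 0.34, edgeR FDR of 1) in cKO versus ctrl. Of the turnover genes, *Fbxo4*, an F-box protein tied to cyclin D1 degradation, was at 0.61 in cKO versus ctrl and 0.84 in cKO versus dKO, and *Mnat1*, a subunit of the CDK-activating kinase, at −0.21 in dKO versus ctrl. *Cdkn2a* and *Cdkn2b* had 4 and 1 counts over all 15 mice, so that their levels could not be compared.

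The 3 genes most like each member were taken by the Pearson r of log2 CPM over the 15 mice among 9310 genes, as a description, since the mice share litters, batches and depth. *Ccnd1* ran closest with *Gjc1* (r = 0.84, Spearman rho 0.86), *Aurka* and *Pphln1*. *Ccnd2* ran with *Cep85* (r = 0.92, rho 0.79), *Brip1* and *Slc12a7*, and *Ccnd3* with *Ccndbp1* (r = 0.89, rho 0.75), *Crocc* and *Nat10*. *Ccne2* ran with *Nek7* (r = 0.89, rho 0.92), *Napepld* and *Ncapg*. Among the kinases, *Cdk2* ran with *Nde1* (r = 0.88, rho 0.80), *Wdr37* and *Il17rd*, *Cdk4* with *Pkm* (r = 0.86, rho 0.81), *Bmpr1a* and *Igfbpl1*, and *Cdk6* with *Fzd2* (r = 0.81, rho 0.82), *Erf* and *Eif4ebp2*. *Cdkn1b* ran with *Cnep1r1* (r = 0.91, rho 0.81), *Pms1* and *Rreb1*, and *Cdkn1c* with *Supt16* (r = 0.95, rho 0.82), *Chmp5* and *Tars*. *Ccne1* had a median of 8 counts per mouse, below the 20 required.

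The strand setting of the counting is not given in the sources used here. If strand was ignored, reads in exon bases shared with an opposite-strand neighbour could be set aside as ambiguous and lost to the member. Exons of *Ccnd1* shared 1100 bases with LTO1, those of *Cdk4* 641 with *Tspan31*, and those of *Ccne2* 609 with *Ints8*. *Ccnd3* shared 361 bases with *Bysl*, *Cdk6* 368 with *Gm17590*, *Ccnd2* 368 and 372 with *9330179D12Rik* and *Gm43126*, and *Cdk2* 34 with *Pmel*. *Cdkn1c* also shared exon bases, with *Gm44732*, which had 7 counts over all mice. *Ccne1* and *Cdkn1b* shared none. *Ints8* had 3826 counts over all mice against 430 of *Ccne2*.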

How the data were processed

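The authors trimmed UMI ClickSeq reads with cutadapt 1.13, aligned them to GRCm38/mm10 with STAR 2.5.2a, removed PCR copies with UMI-tools 0.5.3 and counted genes with htseq-count 0.6.1p1. They deposited whole-number counts per gene and library without normalization. Gene models came from GENCODE M21 of GRCm38, to which 51719 of 51912 identifiers matched. The 2 libraries of mouse S2 were summed, giving 15 mice from 16 libraries. Replicates are embryos.

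Each comparison was fitted on its own 2 groups with edgeR 4.0.16 (TMM, glmFit, glmLRT, no covariates, all listed genes) in R 4.3.3, with Benjamini–Hochberg FDR. Standard errors came from the Fisher information of the fit, and 95% intervals from these. CPM were scaled by TMM over all 15 mice. In the deepest and shallowest mouse, 3 counts were 0.341 and 7.50 CPM without TMM, which covers counting error only. The fit was tested on simulated data with the same dispersion for every gene and no litter or batch effects. That test therefore does not cover differences between litters or batches. Members, lists and tests were chosen with earlier results of these data known. Named genes were the members, *Cdkn1a*, *Knl1* and *Trp53*, list genes at an FDR below 0.05, the pathway gene with the smallest p per list and comparison, and the 3 genes most like each member. Of the genes this rule names, 1 is not reported here. Of the marker genes, *Gad1*, *Ttr* and *Hba-a2* also passed. Proteins were not compared here. Alternatives were the quasi-likelihood F test, DESeq2 1.42.0, RLE size factors, filterByExpr, all 3 groups in one fit, batch, litter or sex as a covariate, 1 batch only, wild-type ctrl only, 1 library of S2, each mouse left out, CPM without TMM and shares without division by length. Only mice with at least 600000 counts, and the interaction of genotype and litter, were added after seeing the data. Plotting used matplotlib 3.10.9.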

Additional observations from a re-analysis of the deposited data

Results flagged for a closer look

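In groups of 4 or 7 mice, the extreme mouse was compared with the rest for 30 groups (10 genes in 3 genotypes) by the gap to its neighbour over the range (Dixon), which flags about 1 in 20 by chance. *Ccnd3* in cKO mouse S2, at 13.2 CPM, stood apart from the other 3 cKO mice, at 10.2 to 10.5 CPM. *Cdkn1b* in dKO mouse T8, at 79.5 CPM, stood apart from the other 3 dKO mice, at 61.3 to 63.0 CPM.

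*Cdk4* and *Cdk6* were lower in every cKO mouse than in its ctrl littermates in litter 1 and higher in litter 2. The log2 effect in litter 2 minus that in litter 1 was 0.62 (95% interval 0.092 to 1.14) for *Cdk4* and 0.64 (0.17 to 1.12) for *Cdk6*, with edgeR FDR values of 1. Litter 2 holds 1 cKO mouse, S2, so the difference rests on that mouse, and the test was chosen after its values were seen.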

How the results depend on the processing

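None of the G1 genes was called at FDR 0.05 in any fit, over 24 alternatives for cKO versus ctrl, 22 for dKO versus ctrl and 20 for cKO versus dKO. Directions were less stable, and those that turned belonged to differences that had not passed the test. The cause was not tested. In cKO versus ctrl, *Ccnd1* was at 0.62 with litter as a block, 0.47 in batch 1 and 0.19 against wild-type ctrl. *Ccnd2* was at 0.024 with the litter block and 0.0062 in batch 1, and *Ccnd3* at −0.0020 with DESeq2, −0.039 with library S2b alone and −0.0021 in mice with at least 600000 counts, where *Cdkn1b* was at 0.0032. In dKO versus ctrl, the litter block gave 0.0022 for *Ccnd1*, 0.058 for *Ccnd2*, −0.26 for *Ccnd3*, −1.05 for *Ccne1* and 0.094 for *Cdk6*. Batch as a covariate gave −0.072 for *Ccnd3*, and batch 3 alone −0.083 for *Ccnd3* and −0.027 for *Ccne1*, which was −0.0094 with DESeq2. Wild-type ctrl gave 0.21 for *Ccnd1* and −0.083 for *Cdkn1c*, which was −0.14 in the deeper mice.

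In cKO versus dKO, the quasi-likelihood test gave 0.069, 0.0015 and 0.065 for *Ccnd1*, *Ccnd2* and *Ccne2*, and the deeper mice 0.13, 0.087 and 0.093. Batch as a covariate gave 0.083, −0.58, −0.18 and −0.076 for *Ccne2*, *Cdk2*, *Cdk4* and *Cdk6*, and batch 3 alone 0.12, −0.59, −0.18 and −0.070. The litter block gave 0.49, −0.55 and −0.19 for *Ccne2*, *Cdk2* and *Cdk4*, and library S2b alone 0.00040 for *Ccnd1*. Leaving out 1 mouse moved *Ccnd1* between −0.49 and 0.11 in cKO versus ctrl, −0.30 and 0.16 in dKO versus ctrl, and −0.39 and 0.20 in cKO versus dKO. *Ccne1* moved between −0.39 and 0.10, −0.19 and 0.23, and −0.49 and 0.13. *Ccnd3* moved between −0.081 and 0.10 in cKO versus ctrl and −0.20 and 0.033 in cKO versus dKO, and *Cdkn1c* between −0.040 and 0.23 in dKO versus ctrl. In cKO versus dKO, *Ccnd2* moved between −0.20 and 0.14, *Ccne2* between −0.36 and 0.20, *Cdk4* between −0.092 and 0.32 and *Cdk6* between −0.057 and 0.24. The filter on low counts left out *Ccne1* against ctrl and *Cdk2* in dKO versus ctrl, which have no value there. Depth limits *Ccne1*, *Cdk2*, *Cdkn1c* and *Ccnd3*, with 0, 1, 2 and 3 counts in the mouse with the fewest.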
